A study of Homo sapiens with 6 samples.

Results

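The mRNAs of the nuclear-encoded subunits of respiratory complexes III, IV and V were compared between HT29 cells with and without knockdown of ALDOA, the glycolytic enzyme aldolase A. The members were the gene symbols that start with UQCR (complex III), with COX4, COX5, COX6, COX7 or COX8 (complex IV) or with ATP5 (complex V), without pseudogene symbols. This rule took 46 of the 28278 genes listed in each library, namely 9 of complex III, 17 of complex IV and 20 of complex V. Of these, 39 had enough counts to be tested, 8, 12 and 19 in the same order. HT29 is a human colorectal adenocarcinoma line with epithelial morphology. In the siALDOA group the cells received a siRNA against ALDOA (labelled ALDOA KD), and in the siControl group they received a scrambled siRNA (labelled WT). Total RNA was taken after 48 h and sequenced from 3 biological replicates per group. The labels do not say how the replicates were grown. The p-values of the gene tests rest on the spread between these libraries, with each gene's spread drawn toward that of other genes. This spread may be partly technical.

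Complex III passes electrons from ubiquinol to cytochrome c, complex IV passes them on to oxygen, and both pump protons across the inner mitochondrial membrane. Complex V, the ATP synthase, uses the proton gradient to make ATP, with a rotating ring of c subunits in the membrane and a catalytic head in the matrix. The respiratory chain and glycolysis, to which aldolase belongs, are the main routes of ATP supply, and the subunits encoded in the nucleus must be matched to a few encoded in mitochondrial DNA. MT-CYB, MT-CO1, MT-CO2, MT-CO3, MT-ATP6 and MT-ATP8 were not found under these symbols among the genes listed. The mitochondrially encoded subunits were therefore not analysed here.

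Each library held between 27277538 and 33237914 counts on genes. The ALDOA mRNA level was 283, 305 and 280 CPM (library-scaled counts, with TMM factors) in the siALDOA libraries and 592, 637 and 668 CPM in the siControl libraries, which is a log2 fold change of -1.13 (SE 0.056, edgeR's quasi-likelihood test, adjusted p = 1.96e-13). Of 11 colorectal epithelial markers 10 passed the filter on low counts, among them EPCAM, CDH1, KRT8, KRT18, KRT19, KRT20 and VIL1, and LGALS4 was listed at 0. The share of ribosomal RNA genes in the counts was 13.1%, 7.71% and 8.11% in siALDOA and 17.4%, 15.3% and 8.15% in siControl. The siControl 1 library, with the largest of these shares, was the lowest of its group for 31 of the 39 tested members, while siControl 2 was the highest for 28. A CPM is a share of the library's counts. In bulk RNA a lower CPM may mean that fewer of the cells hold the mRNA or that each holds less, which cannot be told apart.

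Few of the subunit mRNAs changed with siALDOA. Past an adjusted p < 0.05, 2 members rose, ATP5MG and ATP5MC2 of complex V, and 1 fell, UQCRQ of complex III, which is 7.69% of the 39 tested. Over all 15307 tested genes 1561 passed, a background of 10.2%, with 4.63% higher and 5.57% lower (708 and 853 genes, but 957 and 303 when scaled by library totals only), so the members' share did not stand above it. At the unadjusted p < 0.01 that the study used, the same 2 and 1 members passed, against 12.8% of all genes. The groups did not overlap for 4 members, ATP5MG, ATP5MC2, UQCRQ and UQCRC1, which is 10.3% of the tested members against 27.7% of all genes. The log2 fold changes of the tested members ran from -0.34 to 0.30 with a median of 0.015, beside a median of 0.0016 over all genes, and 23 of 39 were above 0. The sign of the members' median was not stable, since it was -0.0094 after correcting for transcript length and GC content and -0.036 without siControl 1. With library totals only it was 0.089. The median over all genes was -0.013 with the correction and 0.075 with library totals only. With a library left out the median over all genes lay between -0.00051 and 0.0037.

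**Figure D1:**
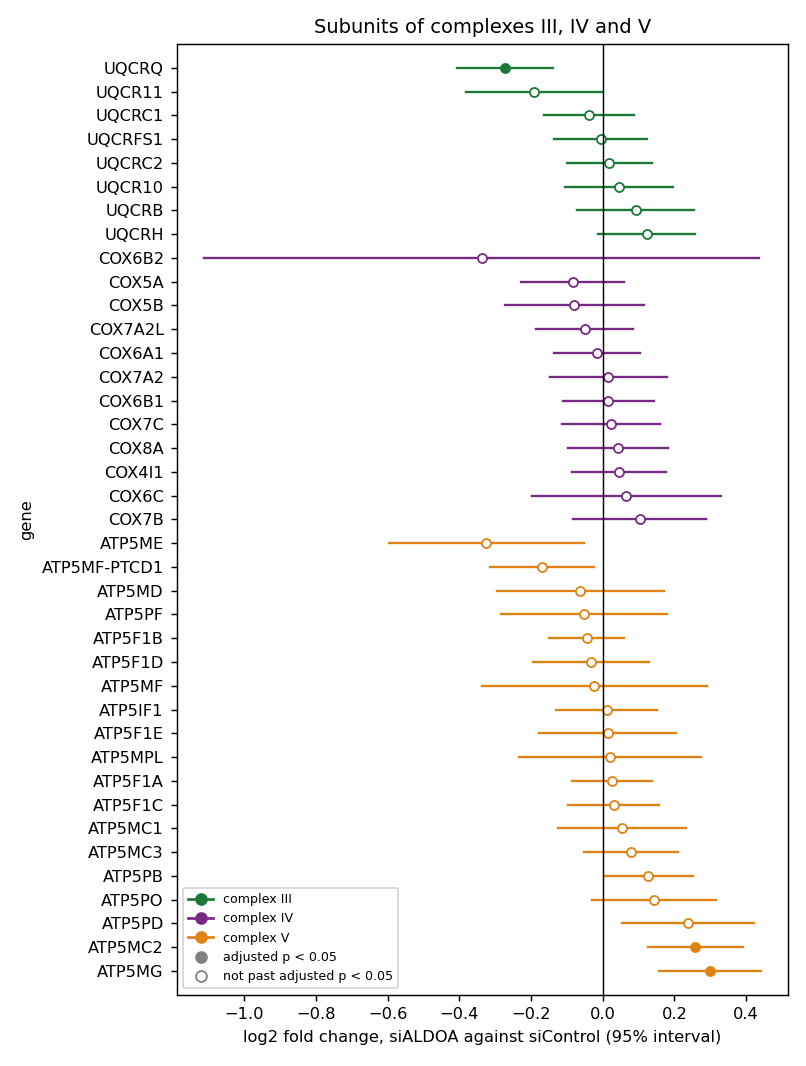
Log2 fold change of each of the 39 tested subunits with siALDOA against siControl (points) with its 95% interval (lines), n = 3 libraries per group, coloured by complex, with filled points past an adjusted p < 0.05. The filled points are UQCRQ at -0.27, ATP5MC2 at 0.26 and ATP5MG at 0.30, and 27 of the 39 points lie within 0.1 of 0.

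The standard errors of the members' log2 fold changes ran from 0.051 to 0.376, with a median of 0.070. For 23 of 39 members the whole 95% interval of the change lay within 1.2-fold in either direction, a bound chosen after the data were seen, and this held for 30.8% of all tested genes. Intervals widen at low counts, and the members were not compared with genes of similar level. The interval reached past that bound for the other 16, among them COX6B2, at about 1 CPM, and ATP5MG, ATP5MC2 and UQCRQ.

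The promoters of the 3 genes that changed are shown since these are the subunits that passed the test. The sequences are RefSeq's on GRCh38.p14, as windows of 300 bases around a start site, most of it upstream, on the strand of the gene, and 35 of the member genes had at least 1 such entry, 41 in all. Capitals mark the letters CCGGAAG or their reverse complement CTTCCGG, a core bound by ETS factors such as GABPA, and GCATGCGC or its reverse complement GCGCATGC, bound by NRF1. Both factors are known regulators of respiratory chain genes.
UQCRQ, chr5:132866392-132866691, plus strand: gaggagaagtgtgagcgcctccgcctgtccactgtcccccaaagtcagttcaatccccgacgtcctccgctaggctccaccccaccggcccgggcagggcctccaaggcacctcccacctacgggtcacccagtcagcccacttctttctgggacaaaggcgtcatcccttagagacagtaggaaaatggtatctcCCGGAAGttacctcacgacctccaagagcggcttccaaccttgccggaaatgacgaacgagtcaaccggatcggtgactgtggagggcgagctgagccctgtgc
ATP5MG, chr11:118401356-118401655, plus strand: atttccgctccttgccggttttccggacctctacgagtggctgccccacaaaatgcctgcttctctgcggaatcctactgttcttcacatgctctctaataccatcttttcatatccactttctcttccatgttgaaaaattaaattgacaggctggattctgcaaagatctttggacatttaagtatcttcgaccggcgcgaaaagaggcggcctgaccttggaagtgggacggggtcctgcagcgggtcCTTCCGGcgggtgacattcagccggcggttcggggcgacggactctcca
ATP5MC2, chr12:53676034-53676333, minus strand: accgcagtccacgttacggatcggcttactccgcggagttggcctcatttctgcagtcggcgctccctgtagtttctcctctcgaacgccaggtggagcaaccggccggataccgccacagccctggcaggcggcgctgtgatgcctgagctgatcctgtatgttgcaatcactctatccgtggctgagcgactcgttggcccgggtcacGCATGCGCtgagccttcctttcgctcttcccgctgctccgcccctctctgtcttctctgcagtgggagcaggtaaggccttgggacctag

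The ETS letters began at position -54 from the start site in UQCRQ, which fell, and at position 2 in ATP5MG, which rose. ATP5MC2 had 3 start sites in RefSeq, and in the window shown the NRF1 letters began at position -40. Of the other 2 windows, not shown, 1 held their reverse complement from position -58 and 1 held none of the letters searched. The ETS letters, on either strand, stood in 15 of the 41 member windows (36.6%) and in 10.3% of all 35116 windows of the same length. The NRF1 letters stood in 7 of the 41 (17.1%) and in 3.05% of all windows. The letters ATGGCGGC or GCCGCCAT, bound by YY1, stood in 2 of the 41 (4.88%) and in 3% of all windows. These are counts of letters. With only 3 subunits called, most of those that carried the letters could not be among them, and a link to the changes was not tested.

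ATP5MG, subunit g of the membrane part of ATP synthase, which has a role where synthase dimers meet, had the highest fold change of the members. Its level was 131, 117 and 106 CPM with siALDOA and 94.8, 101 and 92.4 CPM with siControl. All siALDOA libraries were above all siControl libraries, although siALDOA 3 and siControl 2 lay close together. The log2 fold change was 0.30 (95% interval 0.16 to 0.44, adjusted p = 0.00471), a 1.23-fold difference. It lies on chromosome 11 of hg38 from 118401346 to 118433278 (ENSG00000167283). GENCODE holds 8 pseudogenes of ATP5MG, none listed in the files, and the treatment of reads that match several places was not given in the sources used here.

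ATP5MC2 encodes the c subunit of the rotor ring. Its level was 78.7, 76.9 and 75.8 CPM with siALDOA and 60.5, 65.4 and 67.6 CPM with siControl. The siALDOA libraries lay close to each other and above every siControl library. The log2 fold change was 0.26 (95% interval 0.13 to 0.39, adjusted p = 0.00919). Without siControl 1, the lowest library, it was 0.21 with an adjusted p of 0.0616. The gene (ENSG00000135390) lies on chromosome 12 from 53632726 to 53677408, and GENCODE holds 5 pseudogenes of it.

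UQCRQ, the subunit of complex III that binds near cytochrome b, fell. Its level was 66.9, 69.2 and 62.4 CPM with siALDOA and 76.4, 83.2 and 80.2 CPM with siControl. Every siALDOA library was below every siControl library. The log2 fold change was -0.27 (95% interval -0.41 to -0.14, adjusted p = 0.00621). It was -0.25 with an adjusted p of 0.0527 without siControl 2, and -0.20 with an adjusted p of 0.145 when the counts were scaled by library totals only.

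UQCRQ (ENSG00000164405, chromosome 5 from 132866630 to 132868847, plus strand) shares 255 of its 2218 exon bases, 11.5%, with GDF9 on the opposite strand, from 132866630 to 132866884. The 2218 bases join the exons of all its transcripts. The median length of its protein-coding transcripts is 586 bases, so the shared bases may be a larger part of a single transcript. GDF9 is a growth factor known from the oocyte, and it was looked at here only after the overlap was seen. GDF9 had 946, 1023 and 888 counts in siALDOA and 1204, 1282 and 1321 in siControl, and its log2 fold change was -0.28 (standard error 0.077, adjusted p = 0.0171). In every library the GDF9 count was between 49.2% and 50.8% of the UQCRQ count. The strand setting of the counting was not given in the sources used here, and how far the 2 genes share reads was not tested.

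**Figure D2:**
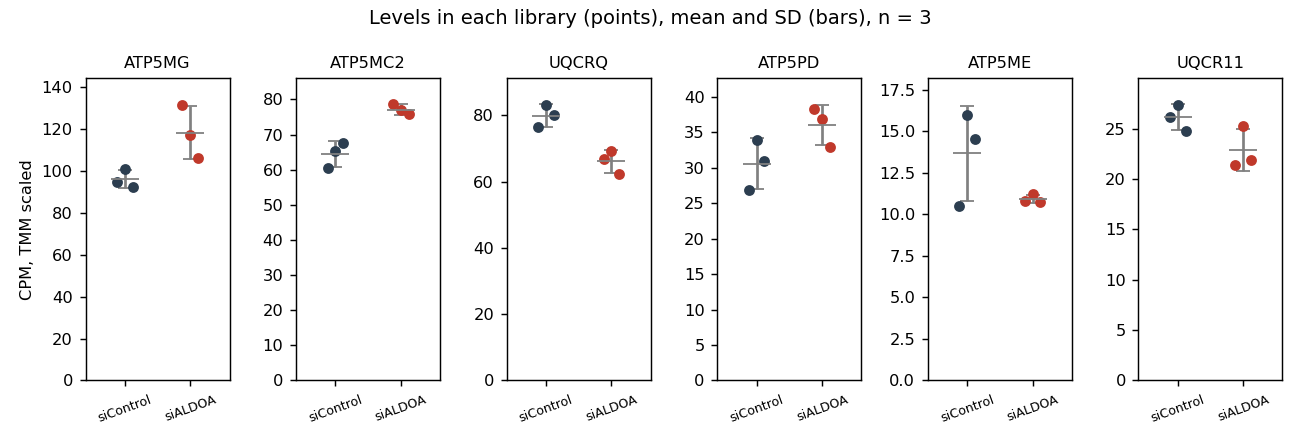
Level in CPM after TMM scaling of 6 subunits in each library (points), with the mean and SD (bars, n = 3), siControl in dark blue and siALDOA in red. The groups do not overlap for ATP5MG, ATP5MC2 and UQCRQ, and overlap for ATP5PD, ATP5ME and UQCR11.

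Complex III otherwise showed small differences. The 2 core proteins, UQCRC1 and UQCRC2, and the Rieske iron-sulfur protein UQCRFS1, which carries the electron to cytochrome c1, had log2 fold changes from -0.04 to 0.02. UQCRC1 was 74.5, 77.5 and 77.0 CPM with siALDOA and 78.6, 78.9 and 77.6 CPM with siControl. Its groups did not overlap, but the log2 fold change was -0.04 with an adjusted p of 0.764. Among the 5 small subunits UQCR11 was 21.4, 25.2 and 21.9 CPM against 26.2, 27.4 and 24.8 CPM, with 1 siALDOA library above the lowest siControl library (log2 fold change -0.19, adjusted p = 0.205). UQCRH, the hinge protein at cytochrome c1, had a log2 fold change of 0.12 (adjusted p = 0.265), and a log2 fold change of 0.060 without siALDOA 1. The log2 fold changes of UQCRB and UQCR10 were 0.09 and 0.05. UQCRQ took 9.58%, 10.2% and 9.48% of the complex III counts with siALDOA and 11.6%, 11.9% and 11.7% with siControl (exact permutation test, two-sided, p = 0.1, the smallest that 3 against 3 allow).

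In complex IV no tested subunit passed the threshold. The 10 subunits used in most tissues had a median log2 fold change of 0.02, from -0.08 to 0.10. COX4I1, the largest nuclear-encoded subunit, was 171, 144 and 146 CPM with siALDOA and 147, 155 and 144 CPM with siControl, with siALDOA 1 apart from the rest (log2 fold change 0.04, adjusted p = 0.732). COX5A, beside it in the matrix part, had a log2 fold change of -0.08 (95% interval -0.23 to 0.06) and COX5B, which binds zinc, also of -0.08 (95% interval -0.27 to 0.11). COX7B had the highest log2 fold change of complex IV, 0.10 (adjusted p = 0.541), and a log2 fold change of 0.024 without siALDOA 1. COX6C, with 17 pseudogenes in GENCODE, had the widest interval of these 10, from -0.20 to 0.33 around 0.07 (-0.14 without siALDOA 1), with siALDOA 1 at 31.6 CPM and the other siALDOA libraries at 22.3 and 21.3 CPM.

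The tissue isoforms of complex IV were low or listed at 0. COX6B2, the testis form of COX6B, was 0.934, 0.799 and 0.950 CPM with siALDOA and 1.44, 0.885 and 1.06 CPM with siControl (log2 fold change -0.34, standard error 0.376, adjusted p = 0.648, and -0.12 without siControl 1). COX7A1, the form of heart and skeletal muscle, stayed below the filter, at 2, 6 and 4 counts in siALDOA and 9, 3 and 3 in siControl. COX4I2, the form of lung, COX6A2, the form of heart and muscle, and COX7B2 and COX8C, forms known from testis, were listed at 0 in all 6 libraries. NDUFS1 and RPL7A, which growing cells use, were also listed at 0, so a listed 0 does not show that a gene was silent. Also not tested were UQCRHL with 2 or 3 counts and ATP5MGL with 2 counts in siControl 3 and 0 elsewhere.

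The subunits of complex V are given by part of the enzyme, and differences between the parts were not tested. The 5 subunits of the catalytic head and central stalk had log2 fold changes from -0.04 to 0.03, and none passed the threshold. ATP5F1B, the catalytic beta subunit, was 482, 475 and 488 CPM with siALDOA and 476, 501 and 514 CPM with siControl (log2 fold change -0.04, 95% interval -0.15 to 0.06). ATP5F1A, the alpha subunit, had a log2 fold change of 0.03 (95% interval -0.08 to 0.14). ATP5IF1, the inhibitor protein that holds the head still when the gradient fails, had a log2 fold change of 0.01 (95% interval -0.13 to 0.15).

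The 4 subunits of the peripheral stalk, which holds the head against the rotor, had a median log2 fold change of 0.13, from -0.05 to 0.24, and none passed. ATP5PD was 38.3, 36.9 and 32.9 CPM with siALDOA and 26.8, 33.9 and 31.0 CPM with siControl, with siControl 2 above siALDOA 3. Its log2 fold change was 0.24 (95% interval 0.05 to 0.42, adjusted p = 0.0957). With scaling by library totals only the adjusted p was 0.0467, and in a fit with the replicate numbers as a block it was 0.0315. Without siControl 1 the log2 fold change was 0.15 with an adjusted p of 0.351. ATP5PB had a log2 fold change of 0.13 (adjusted p = 0.201) and ATP5PO of 0.14 (adjusted p = 0.322).

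The c ring is encoded by 3 genes whose mature proteins are the same, ATP5MC1, ATP5MC2 and ATP5MC3. ATP5MC1 was 28.2, 25.7 and 28.2 CPM with siALDOA and 24.6, 27.4 and 27.1 CPM with siControl (log2 fold change 0.05). ATP5MC3 was 105, 103 and 97.5 CPM with siALDOA and 88.7, 104 and 96.9 CPM with siControl (log2 fold change 0.08, adjusted p = 0.504). Only ATP5MC2 of the 3 passed the test, and the differences between their changes were looked at by shares. ATP5MC2 took 37.2%, 37.4% and 37.6% of the counts of the 3 genes with siALDOA and 34.8%, 33.3% and 35.3% with siControl, a difference of 2.93 percentage points (exact permutation test, two-sided, p = 0.1). The share of ATP5MC3 was 2.13 points lower with siALDOA, at 49.3% against 51.4% (exact permutation p = 0.1), but with counts taken per transcript length its groups overlapped, at 47.2% against 48.8% (exact permutation p = 0.2). The ATP5MC2 share per transcript length was 31.6% against 28.9% (exact permutation p = 0.1). The share of ATP5MC1 overlapped between the groups (exact permutation p = 0.2). These are 5 of 14 ratios computed, and 0.1 is the smallest p the design allows, so none can pass a threshold of 0.05.

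**Figure D3:**
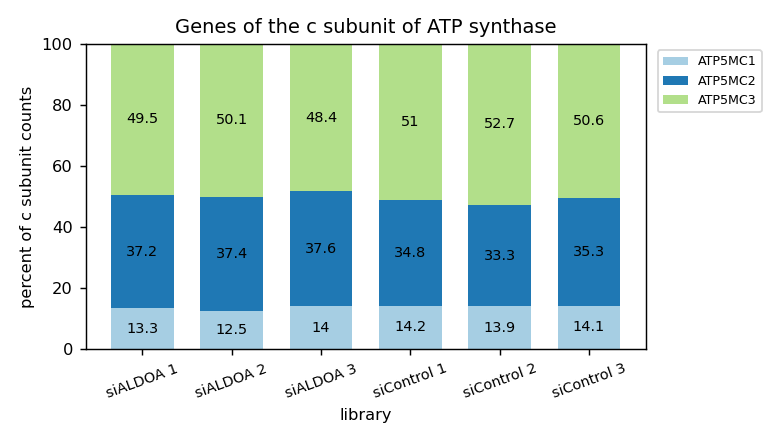
Share of the counts of the 3 c subunit genes in each of the 6 libraries, in percent of their summed counts, with each value printed in its bar. The ATP5MC2 share is 37.2% to 37.6% in the siALDOA libraries and 33.3% to 35.3% in the siControl libraries.

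The 5 small subunits of the membrane part had differences in both directions. ATP5MG rose as given above, and took 7.51%, 6.73% and 6.29% of the complex V counts with siALDOA and 5.996%, 5.72% and 5.36% with siControl (exact permutation p = 0.1). ATP5ME, subunit e, which pairs with subunit g, was 10.8, 11.2 and 10.7 CPM with siALDOA and 10.5, 15.99 and 14.6 CPM with siControl. Its siControl libraries were spread, with siControl 1 below all siALDOA libraries. Its log2 fold change was -0.32 (95% interval -0.60 to -0.05, adjusted p = 0.127), but it rested on single siControl libraries: it was -0.48 with an adjusted p of 0.0131 without siControl 1 and -0.20 with an adjusted p of 0.493 without siControl 2. ATP5ME shares 571 of 932 exon bases with MYL5 on the opposite strand, which had 57 to 102 counts and a log2 fold change of 0.02. ATP5MF, ATP5MD and ATP5MPL (ATP5MK and ATP5MJ in current names for the last 2) had log2 fold changes from -0.06 to 0.02.

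The symbol ATP5MF-PTCD1 is a read-through of ATP5MF and PTCD1, a mitochondrial RNA-binding protein, and was taken as a member by its name. It was 60.3, 63.6 and 67.7 CPM with siALDOA and 65.0, 77.0 and 73.4 CPM with siControl (log2 fold change -0.17, adjusted p = 0.136). It was -0.24 with an adjusted p of 0.0468 without siControl 1 and -0.12 with an adjusted p of 0.457 without siControl 2. It shares 2382 of 2859 exon bases with PTCD1, and the PTCD1 counts were 99.5% to 99.9% of its counts in every library, so its value cannot be told apart from that of PTCD1. ATP5MF itself had a log2 fold change of -0.02 (95% interval -0.34 to 0.29).

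The proportions of the 3 complexes overlapped between the groups. Complex III took 20.6% ± 0.138 (SD, n = 3) of the member counts with siALDOA and 21.0% ± 0.350 with siControl, complex IV 26.9% ± 0.210 and 27.1% ± 0.191, and complex V 52.5% ± 0.337 and 51.9% ± 0.393. The exact permutation p was 0.2, 0.3 and 0.2 in this order. The summed level of the members was 3358, 3305 and 3203 CPM with siALDOA and 3073, 3384 and 3299 CPM with siControl, with siControl 1 the lowest of all.

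Levels were compared between genes only per kilobase of transcript, by the median length of the protein-coding transcripts in GENCODE. ATP5F1B was the highest member in siControl at 580 ± 22.5 CPM per kilobase (SD, n = 3), and it was highest also by the length of the canonical transcript, at 282. In complex IV COX6A1, COX8A and COX6B1 led at 220 ± 6.31, 216 ± 17.3 and 209 ± 10.6 CPM per kilobase, values that did not differ beyond their spread. In complex III UQCRC2 led at 228 ± 6.55, followed by UQCRH at 194 ± 10.9 and UQCRQ at 136 ± 5.80. By the canonical length UQCRC2 was at 69.9 and UQCRQ at 50.8, below UQCRH at 194, so the order in complex III depended on the length taken. ATP5F1A was at 218 by the median length and 34.5 by the canonical length, while ATP5IF1 was at 197 and 223.

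**Figure D4:**
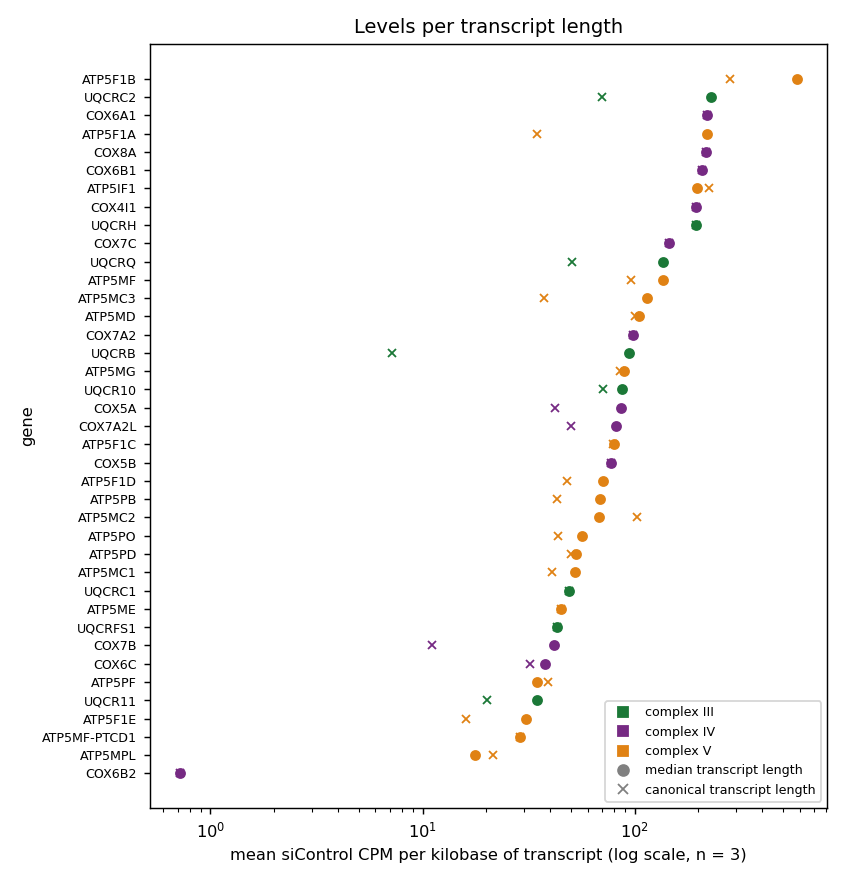
Mean siControl level of the 39 tested subunits in CPM per kilobase of transcript (log axis, n = 3), by the median length of protein-coding transcripts (circles) and by the canonical transcript (crosses), coloured by complex. ATP5F1B is highest under both lengths, at 580 and 282, and COX6B2 is lowest, at 0.722.

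The partner genes of these complexes were listed by role. Of 79 tested genes in 8 lists, 3 rose and 7 fell, which is 12.7% beside the background of 10.2%, and their median log2 fold change was -0.0071. Cytochrome c (CYCS, -0.05), cytochrome c1 (CYC1, -0.10) and NDUFA4 (0.03), a subunit found with complex IV, did not pass. None of 6 complex III assembly factors, 6 complex V assembly factors and 8 genes of complex II and its assembly passed. Of 29 complex IV assembly factors 5 passed, in both directions. COX15, which makes heme a, rose by 0.26 on the log2 scale (adjusted p = 0.0127), OXA1L, an insertase of the inner membrane, by 0.25 (adjusted p = 0.0131) and CMC2 by 0.30 (adjusted p = 0.0213). COA7 (-0.29, adjusted p = 0.00944) and HIGD1A (-0.29, adjusted p = 0.00982), which binds complex IV, fell. None of the 3 that rose passed without siControl 3, with adjusted p from 0.0677 to 0.0936. Of the 6 fits with a library left out, CMC2 did not pass in 5, and COX15 and OXA1L in 3 each. COA7 and HIGD1A did not pass in 1 of these 6 each, nor with library totals only, at -0.22 each (adjusted p = 0.149 and 0.130).

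Among 7 carriers and porins SLC25A3, which brings the phosphate that ATP synthase uses into the matrix, fell by 0.32 (adjusted p = 2.22e-04), from 264 ± 4.48 to 211 ± 12.1 CPM (SD, n = 3), and no other passed. Of 8 genes of cristae organisation, APOOL (-0.62, adjusted p = 2.25e-05) and CHCHD3 (-0.22, adjusted p = 0.0441), both of the MICOS complex, fell. Of 12 regulators PPARGC1B, a coactivator of mitochondrial biogenesis, fell by 0.43 (adjusted p = 0.00832) and TFB2M, a mitochondrial transcription factor, by 0.33 (adjusted p = 0.0173). CHCHD3 did not pass in 4 of the 6 fits with a library left out and in 4 of the 12 other alternatives, with adjusted p up to 0.349 (-0.15) with library totals only. TFB2M did not pass in 3 of these 6 fits, nor with library totals only (-0.26, adjusted p = 0.130). PPARGC1B did not pass without siControl 1 (-0.33, adjusted p = 0.0656). PPARGC1A had a log2 fold change of 1.16 at 1.15 ± 0.936 and 0.512 ± 0.185 CPM, with overlapping groups (adjusted p = 0.160). GABPA, whose letters are marked above, had a log2 fold change of 0.02.

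Other large protein complexes gave the scale. None of 36 tested complex I subunits passed the adjusted threshold, their log2 fold changes ran from -0.20 to 0.19 around a median of 0.04, although 2 of them, NDUFA9 (0.19) and NDUFA5 (-0.20), passed the unadjusted p < 0.01 of edgeR's test. Of 78 mitochondrial ribosomal proteins 2 rose and none fell, and of 81 tested cytosolic ribosomal proteins 1 rose and 2 fell. Their medians were 0.02 and -0.02, close to those of complexes III, IV and V.

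**Figure D5:**
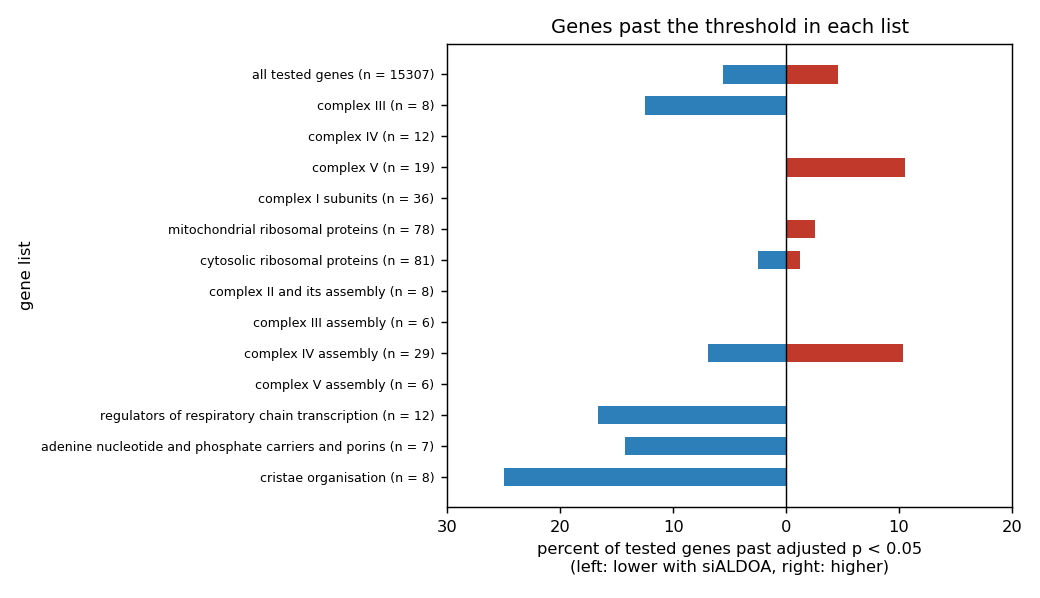
Share of the tested genes of each list that passed an adjusted p < 0.05, in percent, lower with siALDOA to the left and higher to the right, with the number tested in each label. All tested genes show 5.57% lower and 4.63% higher, complex IV and complex I show no bar, and the cristae list shows 2 of 8 genes lower.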

How the data were processed

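Total RNA of HT29 cells was sequenced from 3 siALDOA and 3 siControl libraries. Reads were mapped by the authors with TopHat2 on hg38, and the deposited files hold whole-number counts per gene symbol of each library, without normalization. The annotation, the strand setting and the treatment of reads with several matches are not given in the sources used here. Totals ran from 27277538 to 33237914, so a gene at 1 CPM rests on about as many counts as COX6B2, 24 to 45 per library. Intervals are of the mean change and rest on the spread between libraries, drawn for each gene toward that of other genes.

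The counts were tested in R 4.3.3 with edgeR 4.0.16 (filterByExpr, TMM, robust quasi-likelihood F-test, Benjamini-Hochberg over 15307 genes), on all 6 libraries without a covariate. The standard error was taken as the absolute log2 fold change over the root of F. The method was tested on simulated data, with settings and outcome not given here, so no support is drawn from it. Alternatives used limma 3.58.1 and DESeq2 1.42.0, other scalings and filters, a replicate block, a correction for GC content and length with mgcv 1.9.3 and each library left out. A fit without the robust option was chosen after seeing the data. Coordinates and lengths came from GENCODE release 44, and 1 pseudogene symbol was left out. Figures were drawn with matplotlib 3.10.9.

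The members and lists were chosen with earlier results of these data known. The members named are those past an adjusted p < 0.05, the 3 lowest p in each direction and the 3 highest levels per kilobase in each complex, and all under 1 CPM. Partner genes are named where they passed. Other genes named, such as ATP5PB, ATP5PO, COX6C, GDF9 and the other c subunit genes, were chosen after their values were seen.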

Additional observations from a re-analysis of the deposited data

How the results depend on the processing

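ALDOA and ATP5MG kept their direction and call under every alternative run, and ATP5MG kept an adjusted p of at most 0.0494. Scaling by library totals only gave 957 higher and 303 lower calls over all genes, 3 and 0 among the members and 3 and 3 among the partner genes, whose median became 0.070, while the median of all genes moved to 0.075. It turned the sign of 9 of the 39 members, UQCRC1 (0.036), COX6A1 (0.058), ATP5F1B (0.027), UQCRFS1 (0.064), ATP5MF (0.053), ATP5MD (0.0068), ATP5F1D (0.043), ATP5PF (0.022) and COX7A2L (0.018). The main fit did not treat the replicate numbers as pairs. Correlations of same-numbered deviations were small, at 0.035, 0.027 and 0.026, although each library correlated best with its own number. Whether the samples were paired cannot be told from these values. The replicate block gave 1088 higher and 1284 lower calls over all genes and called ATP5PD (0.24, adjusted p = 0.0315) beside the 3 members already called. The correction for GC content and length also turned 9 members, none by more than 0.016 from 0, namely UQCRC2 (-0.013), COX6B1 (-0.0054), ATP5F1A (-0.0059), ATP5IF1 (-0.016), ATP5MPL (-0.011), ATP5F1C (-0.0013), ATP5F1E (-0.0089), COX7A2 (-0.0017) and COX7C (-0.0094). With each library left out in turn, the calls over all genes ran from 388 to 712 higher (388 without siControl 3, 403 without siControl 2) and from 480 to 867 lower (480 without siControl 3, 551 without siControl 2). The members called ran from 1 to 2 higher (1 without siControl 1) and from 0 to 3 lower (0 without siControl 2, 3 without siControl 1). The partner genes ran from 0 to 2 higher (0 without siControl 3, 1 without siALDOA 2, siControl 1 or siControl 2) and from 5 to 7 lower. Between 2 and 10 members changed sign when a library was left out. The largest such value was COX6C at -0.14 without siALDOA 1, followed by ATP5MF at 0.11 without the same library. Over all alternatives 24 members changed sign in at least 1 and 15 in none, and no member that changed sign was called. Those ranked by p or level that changed sign with a library left out ran as UQCRB (-0.0091 to 0.17), UQCRC2 (-0.023 to 0.044), COX4I1 (-0.038 to 0.088), UQCR10 (-0.011 to 0.13), COX6B1 (-0.026 to 0.050), ATP5IF1 (-0.064 to 0.055), COX8A (-0.023 to 0.098), COX6A1 (-0.035 to 0.013) and COX5B (-0.19 to 0.044). Among those that kept their sign in these fits, ATP5F1A (0.0021 to 0.044), ATP5F1B (-0.075 to -0.020), COX5A (-0.13 to -0.060) and UQCRC1 (-0.049 to -0.022) also moved. The causes were not tested. With 3 libraries per group the exact permutation tests of shares cannot go below p = 0.1, and COX6B2 and the isoforms below it are limited by their low counts.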
